A study of Mus musculus with 7 samples.

Results

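The semaphorins, plexins and neuropilins measured here are the 30 genes whose symbol names a semaphorin of classes 3 to 7, a plexin or a neuropilin and whose mean normalized count was at least 10, out of 25239 genes listed. They comprise 20 semaphorins, which are the ligands, 8 plexins and 2 neuropilins, which are the receptors. The symbols matched 31 genes, and the only one left out was Plxnb3, with a mean of 3.83 normalized counts. The lowest mean among those kept was that of Sema3b, at 37.8 normalized counts.

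The RNA, enriched for poly(A), came from the electroporated cortical regions of 7 wild-type C57BL/6J mouse embryos at E15.5, after in utero Breasi-CRISPR electroporation at E13.5. In Breasi-CRISPR, a donor template goes into cells at the ventricle together with Cas9 and its guide, so that a sample holds edited and unedited cells. In 3 brains, 1 per litter, the donor changed threonine 280 of cyclin D2 to alanine (Ccnd2 Thr280Ala, "edited"). The other 4 brains received a silent CRISPR control, and they comprise 2 of litter 1, 1 of litter 2 and 1 of litter 3. The sources used here do not give the edited share of cells, the sex of the embryos or the change that the silent control makes. All values rest on the authors' deposited table of 1 comparison, which holds a mean normalized count per gene over the 7 brains, a log2 fold change, its standard error (SE) and p-values, and no value per brain. The level in each brain, and whether the groups overlap, therefore cannot be given for any gene. Positive log2 fold changes are higher in edited brains, and a call is an adjusted p below 0.05 in the authors' DESeq2 Wald test.

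Semaphorins are guidance proteins of growing axons and migrating neurons that share the sema domain. Class 3 members are secreted, classes 4 to 6 span the membrane and Sema7a is held to it by a lipid anchor. Most class 3 members bind a neuropilin, which pairs with a plexin, whereas membrane-bound classes mostly bind plexins directly, and the plexin's cytoplasmic part, a GTPase-activating domain, turns binding into changes of cytoskeleton and adhesion. In the developing cortex they are known for steering radial migration, orienting the axons and dendrites of pyramidal neurons, sorting callosal and corticofugal axons and patterning vessels.

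No member was called, but 6 of the 30, all lower in edited brains, had an unadjusted p under 0.05. These were the receptors Plxna4, Plxnc1 and Plxnd1 and the ligands Sema3a, Sema6a and Sema6b, with log2 fold changes between -0.24 and -0.38 in the authors' deposited table. The count of calls by DESeq2 was 0 of 30, beside 36 of 14638 tested genes, or 0.246%. The 6 members lower at an unadjusted p under 0.05 were 20% of the members, beside 3.66% of the 14638 tested genes. At that threshold 0 members were higher, beside 2.2% of tested genes. Of the 30 members 18 lay below 0 (60%) and their median log2 fold change was -0.04, beside 52.0% and -0.01 over the tested genes. Most members are abundant. Of 5522 genes at or above a mean of 1000 normalized counts, 39.9% were below 0 and 2.7% were lower at an unadjusted p under 0.05. Of the 22 members at that abundance 11 were below 0, and these 22 include all 6 of the genes named.

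**Figure D1:**
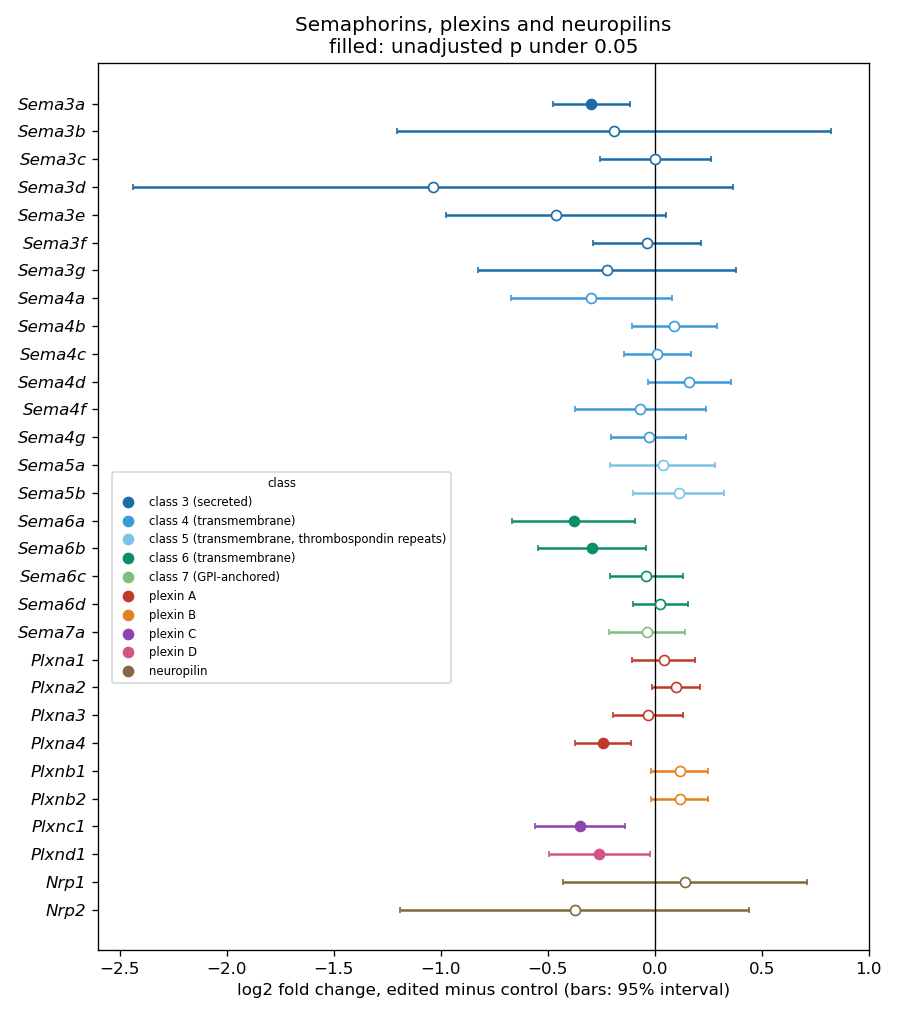
Log2 fold change of each of the 30 genes (x axis, edited minus control, with 95% intervals as bars), grouped by class on the y axis and coloured by class. Filled points have an unadjusted p under 0.05, all 6 of them lie between -0.24 and -0.38, and no interval lies wholly above 0.

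The plexin A genes are paralogs and their reads could be confused, so their coding sequences were compared. Over aligned bases the coding sequences of the 4 genes were between 68.8% and 71.9% identical in pairs, and Plxna2 and Plxna4 were 71.9% identical. The longest stretch that any pair shared without a mismatch was 33 bases (Plxna1 and Plxna4), and Plxna2 and Plxna4 shared at most 26. The sources used here do not give the read length. The window around that stretch of 26 bases lies near the end of the coding sequence, in the cytoplasmic part of the receptor. It is shown because it holds the longest exact run shared by Plxna2 and Plxna4, which lay on opposite sides of 0 in this comparison. Whether another window has fewer mismatches between them was not searched. Each line gives 60 coding bases, 5′ to 3′, from GENCODE M21 transcripts (GRCm38), and capitals mark positions at which the 4 genes are not all identical.
Plxna1: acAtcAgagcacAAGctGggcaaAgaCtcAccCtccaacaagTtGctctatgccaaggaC
Plxna2: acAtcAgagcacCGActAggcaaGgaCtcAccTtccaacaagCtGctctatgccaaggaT
Plxna3: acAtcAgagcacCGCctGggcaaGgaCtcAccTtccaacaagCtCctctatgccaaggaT
Plxna4: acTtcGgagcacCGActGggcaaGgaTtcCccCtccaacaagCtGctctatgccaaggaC
The windows lie at chr6:89320886-89320945 (minus strand, exon 29) for Plxna1, chr1:194810186-194810245 (plus strand, exon 30) for Plxna2, chrX:74341660-74341719 (plus strand, exon 31) for Plxna3 and chr6:32157861-32157920 (minus strand, exon 30) for Plxna4. All 4 genes had the same base at 47 of the 60 positions, and Plxna2 differed from Plxna4 at 7. Plxnb1 and Plxnb2 were 68.4% identical with a longest shared run of 19 bases, and Nrp1 and Nrp2 65.4% with a run of 16.

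Levels were compared per length, as mean normalized counts per kb of merged exons. The summed level was 5181 counts per kb for receptors and 4519 for ligands, a ratio of 1.15. Plxnb2, a receptor of progenitors and neurons needed for neural tube closure in mice, stood highest at 1062 counts per kb, followed by Plxna2 at 916. The GPI-anchored ligand Sema7a had 654, Plxna1 632, the class 4 ligand Sema4c 604 and Plxna4 564 counts per kb. The table has no spread over brains for levels, so neighbours in this order cannot be told apart or shown to differ. The lowest levels were those of the class 3 genes Sema3d, Sema3b, Sema3e and Sema3g, with 5.83, 7.90, 13.2 and 32.5 counts per kb, whereas Sema3c had 232. Summed by class, the levels were 558 counts per kb for class 3, 1374 for class 4, 501 for class 5 and 1432 for class 6. The sums were 2509 for plexin A, 1485 for plexin B, 163 for Plxnc1, 476 for Plxnd1 and 549 for the neuropilins. An opposite-strand gene shares 10.7% of the exon bases of Plxna1 (Gm26811), 7.27% of those of Sema4c (D430040D24Rik) and 2.68% of those of Plxnb1 (Gm7628), and without the strand setting the reads of such genes cannot be told apart. Per kb of coding sequence the order of the leading genes differed, with Plxna2 first at 2770 and Sema5a second at 1551, and the ratio of receptors to ligands was 0.94.

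**Figure D2:**
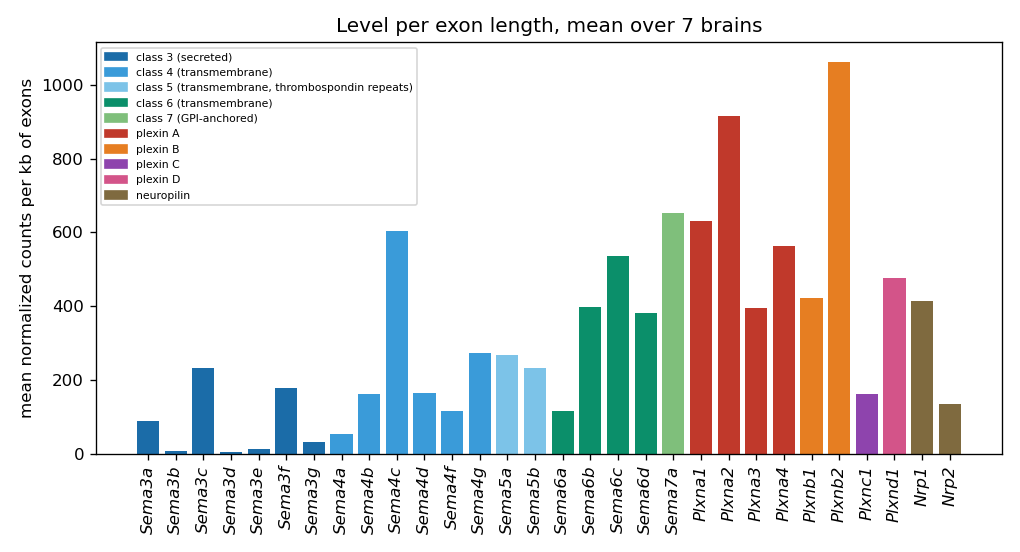
Level of each of the 30 genes on the y axis, in mean normalized counts per kb of merged exons over all 7 brains, with 1 bar per gene coloured by class. Plxnb2 and Plxna2 stand highest at 1062 and 916, and Sema3d and Sema3b lowest at 5.83 and 7.90.

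Among the secreted class 3 ligands, 6 of 7 fold changes were below 0, with a median of -0.22 and a range from -1.04 to 0.00. Below 0 were 52.0% of all 14638 tested genes, 47.7% of the 11356 that reached 100 normalized counts and 39.9% of the 5522 that reached 1000. The share was thus higher when scarce genes were included, and the median level of class 3 genes was 147 normalized counts. Whether 6 of 7 exceeds the share among genes of like abundance was not tested. Sema3a, a repellent of cortical axons that also orients apical dendrites and guides radially migrating neurons, had the smallest p of the ligands. Its mean was 1214 normalized counts and its log2 fold change -0.30 (SE 0.09, 95% interval -0.48 to -0.12, unadjusted p = 0.0012, DESeq2 adjusted p = 0.180), as listed in the authors' deposited table. It lies on chromosome 5, 13125414 to 13602565 (GRCm38), and ranked 97 by p among the 14638 tested genes. Sema3e, the ligand of Plxnd1 in axon and vessel guidance, stood at -0.46 (SE 0.26, interval -0.98 to 0.05) with a mean of only 123 normalized counts in the authors' deposited table. The largest size in the class was that of Sema3d, at -1.04 (SE 0.72, interval -2.44 to 0.37, unadjusted p = 0.147, adjusted p = 0.968) with 50.1 normalized counts in that deposited table. Its interval runs from far below 0 to above it. Sema3b at -0.19 (SE 0.52) and Sema3g at -0.22 (SE 0.31) in the authors' deposited table were also scarce, and their intervals include 0. The abundant members Sema3c, a cue for callosal axons, and Sema3f, a Nrp2 ligand, stood close to 0. Sema3c, with a mean of 1654 normalized counts, was at 0.00 (SE 0.13, interval -0.26 to 0.26, unadjusted p = 0.983, DESeq2 adjusted p = 0.999) and Sema3f at -0.04 (SE 0.13, interval -0.29 to 0.22) per the authors' deposited table. Within the secreted class, therefore, Sema3a alone was below 0 at an unadjusted p under 0.05. Whether it differs from Sema3c or Sema3f was not tested, since the table gives no covariance between genes, and its interval overlaps theirs.

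Of the 4 class 6 ligands 3 were below 0, beside 39.9% of the tested genes that reached 1000 normalized counts. Their median was -0.17, and their mean weighted by 1/SE squared -0.07. Sema6a and Sema6b lay furthest below 0, and Sema6c and Sema6d lay near 0. Sema6a, a transmembrane ligand of Plxna2 and Plxna4 with known roles in cell migration and in the course of corticofugal axons, had a mean of 1017 normalized counts and stood at -0.38 (SE 0.15, interval -0.67 to -0.09, unadjusted p = 0.00976, DESeq2 adjusted p = 0.514), as listed in the authors' deposited table. Sema6b, a ligand of Plxna4 in hippocampal axon guidance, had 1576 normalized counts and stood at -0.29 (SE 0.13, interval -0.54 to -0.04, unadjusted p = 0.0231, adjusted p = 0.690) there. Both thus had an unadjusted p under 0.05, and neither was called. Sema6c and Sema6d, with 3181 and 4044 normalized counts, stood at -0.04 (SE 0.09, interval -0.21 to 0.13, unadjusted p = 0.651, adjusted p = 0.999) and 0.03 (SE 0.07, interval -0.10 to 0.15) in the authors' deposited table. The intervals of Sema6a and Sema6b overlap those of Sema6c and Sema6d, and the differences between these members were not tested.

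Classes 4, 5 and 7 showed no member at an unadjusted p under 0.05. Class 4 had 3 of 6 members below 0 and a range from -0.30 to 0.16. Sema4d, the ligand of Plxnb1, was highest at 0.16 (SE 0.10, interval -0.03 to 0.36, unadjusted p = 0.102), as listed in the authors' deposited table. Sema4a, better known from immune cells and vessels, had a mean of 296 normalized counts and was lowest at -0.30 (SE 0.19, interval -0.67 to 0.08, unadjusted p = 0.122, adjusted p = 0.954) there. Sema4c, the most abundant of the class and a ligand of Plxnb2, had 2774 normalized counts and stood at 0.01 (SE 0.08, interval -0.14 to 0.17, unadjusted p = 0.881, adjusted p = 0.999) in that deposited table. Sema4b, Sema4f and Sema4g lay between -0.07 and 0.09 in the authors' deposited table. Sema5a and Sema5b, the thrombospondin-repeat semaphorins, restrict axons and dendrites through Plxna1 and Plxna3 in the retina. Sema5a, with 4999 normalized counts, is listed at 0.04 (SE 0.13, interval -0.21 to 0.28, unadjusted p = 0.762, DESeq2 adjusted p = 0.999) and Sema5b, with 1655, at 0.11 (SE 0.11, interval -0.10 to 0.33, unadjusted p = 0.305, adjusted p = 0.999), as listed in the authors' deposited table. Sema7a, which promotes axon growth through integrins and binds Plxnc1, stood at -0.04 (SE 0.09, interval -0.21 to 0.14, unadjusted p = 0.685, adjusted p = 0.999) there, at 2155 normalized counts. Over all ligands the median was -0.04, with 13 of 20 below 0.

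Among the receptors, Plxna4, Plxnc1 and Plxnd1 were lower at an unadjusted p under 0.05, and the other plexins lay near or above 0. Plxna4, the plexin through which class 3 and class 6 semaphorins act on many axons, had the smallest p of all members. It is the member nearest to a call, at -0.24 (SE 0.07, interval -0.37 to -0.11, unadjusted p = 0.000341, DESeq2 adjusted p = 0.0925), with a mean of 7954 normalized counts in the authors' deposited table. It was the only member with an adjusted p below 0.1, a threshold that 0.389% of the tested genes passed. Its fold change corresponds to -15.4%, and the gene, on chromosome 6 from 32144268 to 32588192, ranked 54 by p among the tested genes. An antisense gene, Plxna4os3, shares 0.78% of its exon bases, and the strand setting of the counts is unknown here as well. The other plexin A genes were not lower at that threshold. Plxna2, the most abundant plexin A, stood at 0.10 (SE 0.06, interval -0.01 to 0.21, unadjusted p = 0.0843, adjusted p = 0.925) with 15736 normalized counts in the authors' deposited table. Plxna1 stood at 0.04 (SE 0.08) and Plxna3 at -0.03 (SE 0.08) in that deposited table. The intervals of Plxna4 and Plxna2 did not overlap, and the difference between these genes was not tested.

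Plexin B genes, receptors of class 4 semaphorins, lay above 0 with close values. Plxnb1 stood at 0.12 (SE 0.07, interval -0.01 to 0.25, unadjusted p = 0.0834) and Plxnb2, with a mean of 8201 normalized counts, at 0.12 (SE 0.07, interval -0.02 to 0.25, unadjusted p = 0.0857, adjusted p = 0.927), as listed in the authors' deposited table. Neither passed even before adjustment. Plxnc1, the Sema7a receptor, known as a marker of subsets of cortical neurons and of some immune cells, was the lowest receptor with a narrow interval. Its mean was 1357 normalized counts and its log2 fold change -0.35 (SE 0.11, interval -0.56 to -0.14, unadjusted p = 0.00125, DESeq2 adjusted p = 0.187), as listed in the authors' deposited table. It lies on chromosome 10, from 94790866 to 94944835. Plxnd1, the Sema3e receptor of endothelium and of callosal and other forebrain neurons, stood at -0.26 (SE 0.12, interval -0.49 to -0.02, unadjusted p = 0.0320, adjusted p = 0.765) with 3472 normalized counts in the authors' deposited table.

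The neuropilins stood apart by their spread and not by their fold change. Nrp1, the Sema3a coreceptor that also binds VEGF on endothelium, had 4041 normalized counts and stood at 0.14 (SE 0.29, interval -0.43 to 0.71, unadjusted p = 0.628, adjusted p = 0.999), as listed in the authors' deposited table. Nrp2, the coreceptor of Sema3f, had 1605 normalized counts and stood at -0.37 (SE 0.42, interval -1.19 to 0.44, unadjusted p = 0.368, adjusted p = 0.999) there. The SE of Nrp1 was 3.61 times the median over 2613 genes of similar abundance (within 2-fold), of which 32 had a higher SE. For Nrp2 the ratio was 4.25 among 4493 such genes, of which 30 had a higher SE. Among the other 28 members this ratio ranged from 0.80 to 1.69. The intervals of both neuropilins include the values of Plxna4 and Sema3a as well as 0. The table gives no value per brain, so which brains carry this spread was not measured.

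**Figure D3:**
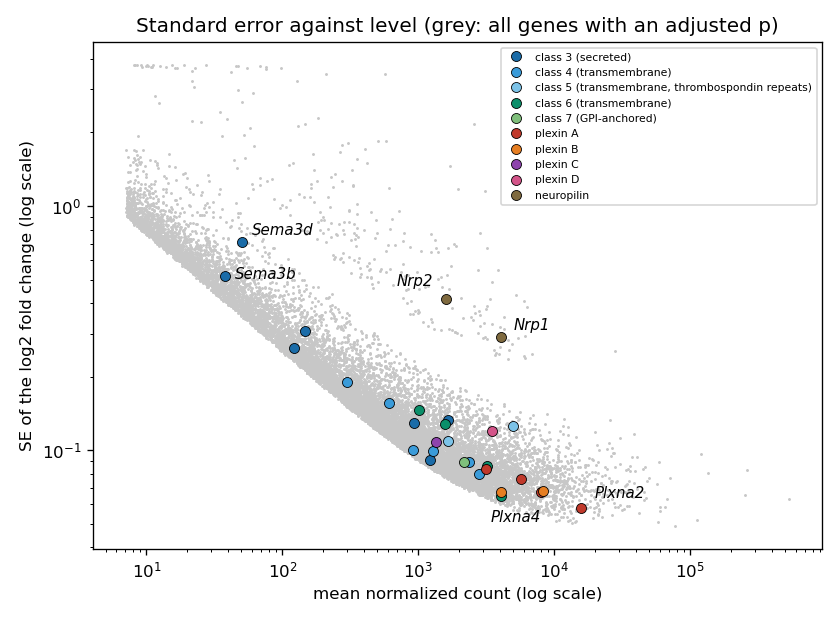
Standard error of the log2 fold change (y axis, log scale) against mean normalized count (x axis, log scale), with grey points for the 14638 tested genes and coloured points for the 30 members by class. Nrp1 and Nrp2, with SEs of 0.29 and 0.42, lie above the main band of genes of their abundance. Among the other members the SE was at most 1.69 times the median of such genes, for Sema3d. Of the 1798 genes of similar abundance to Sema3d, 89 had a higher SE.

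Ligands were set beside receptors that they are known to bind, in mouse or in other vertebrates. Sema3a at -0.30 and its signalling receptor Plxna4 at -0.24 were both below 0 in the authors' deposited table, while its coreceptor Nrp1 was at 0.14 with the wide interval given above. Sema6a and Sema6b, at -0.38 and -0.29 in that deposited table, also bind Plxna4, and Sema6a binds Plxna2, which stood at 0.10. Sema3e at -0.46 and Plxnd1 at -0.26 were both below 0 in the authors' deposited table, although the interval of Sema3e included 0. Plxnc1 at -0.35 stood beside a Sema7a value of -0.04 in the authors' deposited table. Both were below 0, and only the receptor had an unadjusted p under 0.05. For the class 4 axis, Sema4d and Plxnb1 stood at 0.16 and 0.12, and Sema4c and Plxnb2 at 0.01 and 0.12, in the authors' deposited table. Sema3f at -0.04, its coreceptor Nrp2 at -0.37 and Plxna3 at -0.03 all had intervals that include 0. Sema5a and Sema5b, at 0.04 and 0.11 in the authors' deposited table, stood on the other side of 0 from Plxna3, and Sema6d and Plxna1 stood at 0.03 and 0.04. Of the 14 pairs, 10 had the same sign and 4 opposite signs. This count depends on which pairs were listed, and they were chosen with earlier results of these data known. Plxna4 and Plxna3 each enter several pairs, and no share was computed for other pairs of genes. Some signs also rest on values close to 0, such as those of Sema4c and Sema3f. The genes of all pairs share the same 7 brains, so values of the same sign in a ligand and its receptor are not independent of each other.

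Genes that act with or downstream of plexins were taken from 6 lists of 83 genes in all, of which 82 had an adjusted p. None was called by DESeq2, 3 were lower and 2 higher at an unadjusted p under 0.05, shares close to the 3.66% and 2.2% of all tested genes, and the median was -0.03 with 47 below 0. Among 21 ligand partners and coreceptors, 14 were below 0 with a median of -0.12. Cntn2, an axonal adhesion molecule, stood at 0.18 (SE 0.07, unadjusted p = 0.0132), Lingo1, a component of the Nogo receptor complex, at -0.32 (SE 0.13, unadjusted p = 0.013) and Nrcam, an L1-family partner of neuropilin, at -0.18 (SE 0.09, unadjusted p = 0.0390), as listed in the authors' deposited table. The collapsin response mediators, which carry the Sema3a signal to microtubules, had 3 of 5 below 0, a median of 0.00 and a range from -0.08 to 0.13. Crmp1 stood at -0.08 (SE 0.09) and Dpysl2 at -0.07 (SE 0.07) in the authors' deposited table. Of 22 GTPases and exchange factors 14 were below 0 with a median of -0.05, and Tiam1, an exchange factor for Rac, had the smallest p at -0.29 (SE 0.09, unadjusted p = 0.00185, adjusted p = 0.224), as listed in the authors' deposited table. The 22 kinases and actin effectors had a median of 0.01, and Gsk3b, a kinase that phosphorylates collapsin response mediators, stood at 0.11 (SE 0.05, unadjusted p = 0.0287) there. The 5 MICAL genes, oxidoreductases that disassemble actin, had a median of -0.13 with 4 below 0, and the 7 proteases a median of 0.05 with 2 below 0. No member of these last lists had an unadjusted p under 0.05.

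Markers of the cell types in which these genes are known to be expressed also differed in their fold changes. Of 16 endothelial markers 15 were below 0 with a median of -0.30, and Cldn5, with the smallest p there, is listed at -0.44 (SE 0.16) by the authors' deposited table. Lower at an unadjusted p under 0.05 were 2 of the 16. The 14 microglia and macrophage markers had a median of -0.62 and lay below 0 without exception, 6 of them at an unadjusted p under 0.05 (3.66% of tested genes were lower at that threshold), with C1qb at -0.81 (SE 0.27) in that deposited table. Both medians lay below the values of Plxnd1 and Plxna4, and their part in the low values of Plxnd1, Plxnc1 and Sema4a was not tested. Of 18 neuronal maturation genes 14 were below 0 with a median of -0.14, and 6 of the 18 were lower at that threshold, among them Syt1 at -0.33 (SE 0.09) and Gap43 at -0.27 (SE 0.08) in the authors' deposited table. Of 16 apical radial glia markers 14 were above 0 with a median of 0.20, and all 11 intermediate progenitor markers were above 0 with a median of 0.19. Higher at an unadjusted p under 0.05 were 6 of the 16 and 4 of the 11, beside 2.2% of tested genes. Of both lists 1 gene was called, beside 0.246% of tested genes. It was the radial glia transcription factor Lhx2, which rose by 0.49 (SE 0.11, DESeq2 adjusted p = 0.0078) according to the authors' deposited table. The part of the maturation, radial glia and progenitor genes in the values of Plxna4, Sema3a and the plexin B genes was not tested either. Markers of upper-layer neurons had a median of -0.06 (6 of 10 below 0) and those of deep-layer neurons 0.10 (3 of 10 below 0). The upper-layer list held 2 called genes of 10, beside 0.246% of tested genes. These were Lhx2, already counted above, and Rorb, at -0.58 (SE 0.11, DESeq2 adjusted p = 0.00041), as listed in the authors' deposited table. The further lists had medians of -0.23 for 8 pericyte, -0.91 for 12 meningeal and fibroblast and -0.29 for 5 oligodendrocyte precursor markers. Medians were -0.15 for 10 Cajal-Retzius and 0.02 for 14 interneuron markers. Of the 14 interneuron markers 1 was called, beside 0.246% of tested genes. It was the neuropeptide gene Npy, at -0.76 (SE 0.19, DESeq2 adjusted p = 0.029) in the authors' deposited table. Of the 5 oligodendrocyte precursor markers 2 were lower at an unadjusted p under 0.05, beside 3.66% of tested genes. The 9 choroid plexus and hem markers had a median of 2.64, with Ttr at 5.30 (SE 2.17) in the authors' deposited table. Of these 9, 8 were above 0 and 4 were higher at an unadjusted p under 0.05, beside 2.2% of tested genes, and none was called. None of the listed markers had a mean of 0, and markers of cortex were abundant, with a median of 4096 normalized counts for deep-layer, 5428 for upper-layer and 3119 for radial glia markers. In such bulk tissue, fewer cells of a type and less RNA per cell cannot be told apart.

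**Figure D4:**
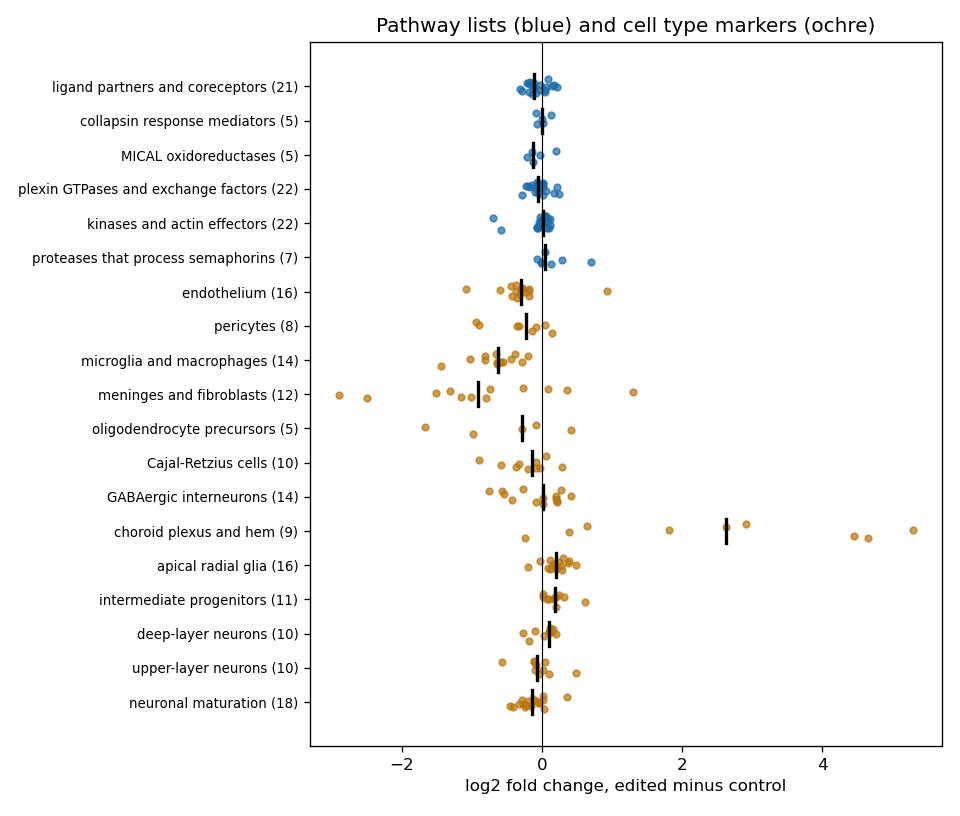
Log2 fold change (x axis, edited minus control) of every gene with an adjusted p in the 6 pathway lists (blue) and 13 marker lists (ochre), with 1 point per gene, the list's median as a black bar and the number of genes in brackets. The medians of the pathway lists lie between -0.13 and 0.05, and those of microglial, endothelial, neuronal maturation and radial glia markers at -0.62, -0.30, -0.14 and 0.20.

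Ccnd2 itself, the edited gene, had 27810 normalized counts and stood at 0.08 (SE 0.25) in the authors' deposited table, a measure of total transcript that does not check the edit. Its SE was 3.65 times the median over 165 genes of similar abundance, of which 0 had a higher SE, so its value is imprecise for its level. Most members were measured tightly enough to set bounds. For 20 of the 30 the 95% interval stayed between -0.5 and 0.5 on the log2 scale.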

How the data were processed

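RNA from 7 electroporated cortices (3 edited, 4 silent control, in 3 litters) was compared by the authors. Per the submitters' processing notes, the tools were cutadapt, featureCounts and DESeq2 and the build mm10. Aligner, annotation, strand setting and read length were not given in the sources used here. In the file, the deposited mean normalized count is a signal, the mean over 7 libraries after division by size factors. The log2 fold change and SE are, per the file headers, those of the authors. Their Wald statistic is deposited as a score. Each p-value and adjusted p is deposited by the authors (DESeq2 Wald test, Benjamini-Hochberg). The table's name refers to litters, and no model was refitted here to test whether the authors' model had a litter term. The table holds each fold change with both signs. Its Wald statistic follows the sign opposite to the one given here, so Plxna4, at -0.24, has a Wald statistic of 3.58. The sign was set from 694 genes with 1 read in 1 library. They formed 7 sets of the same value, 3 positive and 4 negative, as many as edited and control libraries. The positive sets had log2 fold changes of 0.56, 0.61 and 0.85, and the negative sets -0.80, -0.80, -1.00 and -1.05. Sets of 1 sign thus did not all share 1 value. The sets at -0.80 had unlike size factors, 1.16 and 0.77, and litter 1 held 2 control brains. Which terms the authors' model had was not tested beyond this. From these sets, the reads counted in the listed genes were estimated at about 19400000 to 32800000 per library. That is not the sequencing depth, which also includes reads not counted in genes. The number of counted reads limits low genes most.

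Computed here were 95% intervals (1.96 SE), medians, counts, SE ratios to genes within 2-fold of a member's mean, and levels per kb from GENCODE M21 (GRCm38), to which 30 of 30 members matched (Python 3.11.15, pandas 2.3.3, Biopython 1.88). The code for the adjustment was compared with a standard implementation on simulated p-values. This checks the formula and not the authors' model. Members, lists and pairs were chosen with earlier results of these data known. Every member was named, with full values for those at an unadjusted p under 0.05, the highest level and largest fold change of a class, and the neuropilins. Adjustments, thresholds, minimum means, centring and length definitions were varied. Without values per library no model was refitted.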

Additional observations from a re-analysis of the deposited data

How the results depend on the processing

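The count of members called stayed at 0 when the p-values were adjusted over all genes with a p, with a minimum mean of 100 and with none; at an adjusted p below 0.1 it was 1, Plxna4, beside 0.389% of tested genes. Adjusted over all genes with a p, Plxna4 was at 0.120, Sema3a at 0.234 and Plxnc1 at 0.243. The count of members below 0 was 18, and 16 to 19 under the other minimum means and relative to the median of all genes; the count at an unadjusted p under 0.05 was 6 under each minimum mean. Of 60 alternative values for 15 class medians, all moved by less than the median SE of the class. This says little about stability. Centring subtracted only the median of all genes, -0.006, and classes of 1 gene could not change by weighting or minimum mean. In class 3 the median SE of 0.26 was larger than the size of the median, -0.22. Medians near 0 changed sign. That of class 4 was -0.01 and 0.02 as a mean weighted by 1/SE squared, that of plexin A 0.00 and -0.03, and that of all receptors 0.00, -0.01 weighted and -0.03 with Plxnb3 included, so no direction is given for them. The ratio of receptor to ligand level crossed 1 between exon and coding length. No paired analysis was possible because the table holds no values per library; leaving out brains was not possible for the same reason. The SEs of Sema3b, Sema3e and Sema3g were 1.08, 0.98 and 1.25 times the median of genes of similar abundance, and that of Sema3d 1.69 times.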
